A study of Mus musculus with 8 samples.

Results

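The proteasome is the large protease that degrades ubiquitin-tagged proteins, and the genes of its subunits, assembly chaperones and activators were followed here through maps of the transcription factor IRF5 in mouse macrophages. Members were the genes whose symbol, in the gene column of any of 6 deposited peak lists, begins with Psma to Psmg and a digit, pseudogenes left out. A list names a gene only as the nearest one to a peak, and this gave 43 members among 20824 named genes. Of 51 protein-coding symbols of this form in the RefSeq table, 8 were never the nearest gene and are therefore no members. These are Psma8, Psmb9, Psmb10, Psmb11, Psme2b, Psmf1, Psmg2 and Psmg3. The symbols of Psmc3ip, which encodes a factor of meiotic recombination, and Psme3ip1, named for its binding to Psme3, fit the rule although neither is a proteasome subunit, and 36 of the 43 members encode subunits or activators with an established place in the particle, counting neither these 2 nor the 5 assembly chaperones.

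The 20S core is a barrel of stacked rings, with alpha subunits that gate the entry and beta subunits that hold the cutting sites. The 19S particle sits on its ends, where ATPases unfold the substrate and non-ATPase subunits bind and remove ubiquitin. Interferon is known to induce 3 replacement beta subunits, encoded by Psmb8, Psmb9 and Psmb10, which form the immunoproteasome, and the activator subunits encoded by Psme1 and Psme2, and these shape the peptides that macrophages present on MHC class I molecules.

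IRF5, an interferon regulatory factor activated downstream of Toll-like receptors, was mapped by CUT&Tag with the abcam antibody ab21689. In this assay an antibody brings a transposase to DNA beside the protein. The cells were wild-type (wt) macrophages grown from mouse bone marrow, given CpG, the unmethylated DNA ligand of TLR9, or PBS as control. Each condition had 2 anti-IRF5 libraries, called CpG 1 and CpG 2, and control 1 and control 2, and the labels give neither dose nor duration nor a statement that libraries of one condition stem from different animals or cultures. The lists held 13553 and 25851 peaks with CpG and 29226 and 37315 with control, their sequencing depth is unknown, and CpG 1 stood apart by its short list, with a median peak length of 202 bp against 317 bp in CpG 2 and 291 and 341 bp in the controls. Of the macrophage markers Adgre1, Cd68, Csf1r, Mertk, Spi1, Fcgr1 and Cd14, 3 and 6 of 7 had a promoter peak with CpG and 6 and 7 with control, while the T cell genes Cd3d and Cd4 had none in any library. The endothelial gene Pecam1, the one marker of the stromal list with a name, had a promoter peak in all 4 libraries, and 1 of 3 neutrophil genes had one in control 2.

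Proteasome genes carried promoter peaks in every library, and their share was close to that of all named genes in CpG 1 and above it in the other libraries. A promoter call is a peak that the authors' annotation put in the Promoter class of that gene. With CpG, 5 of 43 members (11.6%) had one in CpG 1 and 19 (44.2%) in CpG 2, and with control 16 (37.2%) in control 1 and 17 (39.5%) in control 2. All named genes were called at 10.4% and 22.2% in CpG 1 and CpG 2 and at 24.1% and 28.6% in control 1 and control 2. Among the 11335 named genes that are protein-coding in RefSeq the shares were 14.1% and 30.5% with CpG and 33.2% and 38.8% with control. Against protein-coding genes the members were therefore lower in CpG 1, nearly level in control 2 and highest relative to the background in CpG 2, at 1.45 times its share.

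Of the 19 members called in CpG 2, 15 were not called in CpG 1, and 1 member was called in CpG 1 alone of the pair. The 4 members shared by the pair were 80.0% of those called in CpG 1 and 21.1% of those called in CpG 2, against 71.7% and 33.7% for all named genes. The controls shared 9 members, 56.2% of those called in control 1 and 52.9% of those called in control 2, against 74.8% and 62.9% for all named genes. Over all named genes, 3400 ± 1736 had a promoter call with CpG and 5490 ± 667.5 with control (mean ± SD, n = 2 libraries each). The exact two-sided permutation test over the 6 assignments of 4 libraries gave p = 0.333, the smallest it can give. When each list was cut to its 13553 most significant peaks, 5 and 10 members were called with CpG and 6 and 8 with control, against 10.4% and 14.0% of all named genes with CpG and 15.1% and 14.4% with control. The count of CpG 2 was above that of control 2 by promoter calls, at the full and at the equal list length, and not by every rule. By nearest gene within 1 kb 24 members were called in CpG 2 and 26 in control 2, and by summits within 1 kb 27 in each. Among the 36 subunits and activators 14 were called in CpG 2 and 15 in control 2. No share of all named genes was set beside the counts by nearest gene within 1 kb.

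**Figure D1:**
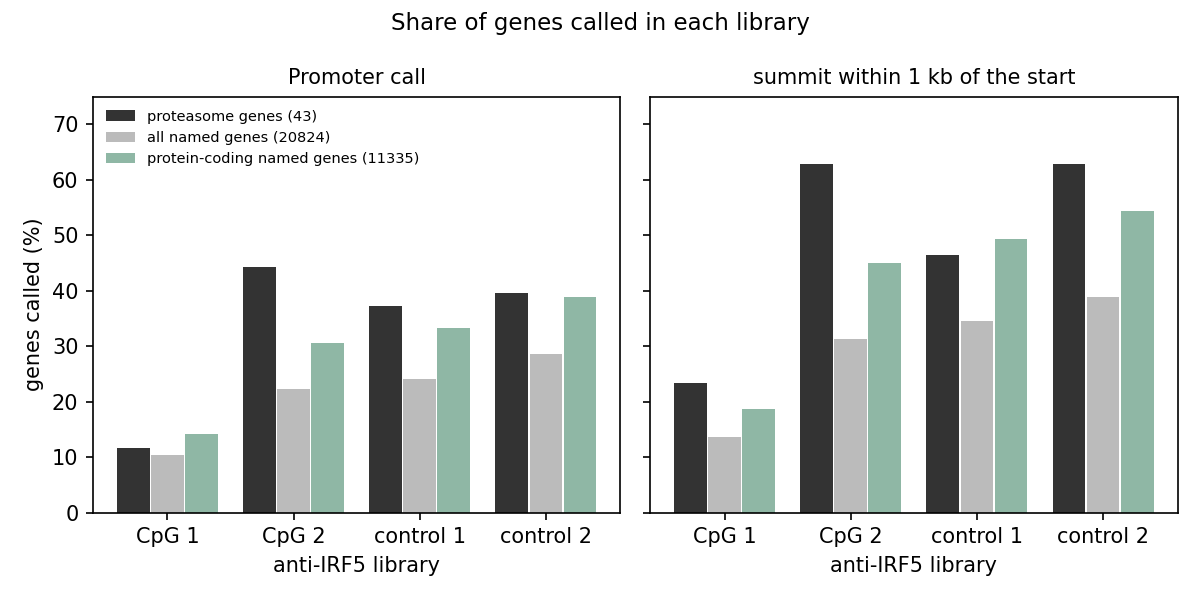
Share of genes called (y axis, %) in the CpG and control libraries (x axis) for the 43 proteasome genes, all 20824 named genes and the 11335 protein-coding named genes, with promoter calls on the left and peaks whose summit lies within 1 kb of the gene start on the right. The proteasome genes reached 44.2% and 62.8% in CpG 2, against 22.2% and 31.3% of all named genes.

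Peaks with a summit just inside a gene were often put into its 5′ UTR, exon or intron and not into its Promoter class. A second count was therefore made of peaks with a summit within 1 kb of a gene's start whatever their class, a rule chosen after the data were seen. By it 10 and 27 members (23.3% and 62.8%) were called with CpG and 20 and 27 (46.5% and 62.8%) with control. The shares of all named genes were 13.6% and 31.3% with CpG and 34.6% and 38.8% with control. Those of protein-coding genes were 18.7% and 44.9% with CpG and 49.4% and 54.3% with control, so the members of control 1 lay just below that background. Of the peaks within 1 kb of a member's start, the Promoter class of that member held 5 of 11 and 20 of 33 with CpG and 15 of 24 and 15 of 34 with control.

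Psmb3 and Psmd3 were the members with a promoter call in all 4 libraries. They make up 4.65% of members, against 5.51% of all named genes. Psmb3 encodes a non-catalytic subunit of the beta ring (chromosome 11, 97594224 to 97604326, plus strand). The fold enrichment of its highest promoter peak, the authors' ratio of signal to local background, was 3.96 in CpG 1 and 10.9 in CpG 2, and 4.76 in control 1 and 8.63 in control 2. These values are compared only within their own list, where they lay at percentiles 16.5 and 88.0 with CpG and 24.9 and 78.2 with control. The second library of each condition thus had the higher rank, and no order between the conditions can be read from the lists. The summit lay 276, 261 and 271 bp upstream of the start in CpG 2, control 1 and control 2, within 15 bp of each other, and 768 bp upstream in CpG 1. CpG 2 had a lower promoter peak as well, 1378 bp upstream with a fold enrichment of 5.05. Psmd3, a subunit of the 19S lid (chromosome 11, 98573379 to 98586805, plus strand), had fold enrichments of 4.37 and 4.45 with CpG and 7.82 and 10.6 with control. Its peaks ranked at percentiles 29.7 and 15.4 in the CpG lists and 80.9 and 86.6 in the control lists, lower in both CpG lists, although ranks from lists of different length show no change in binding. Its summits lay 193 and 127 bp upstream with CpG and 269 and 158 bp upstream with control.

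By the count of summits within 1 kb, 5 members were called in all 4 libraries (11.6%, against 9.01% of all named and 12.7% of protein-coding named genes). Psma5, Psmd12 and Psme3ip1 joined Psmb3 and Psmd3. Psmd12, which encodes another subunit of the 19S lid, had summits 71 and 153 bp inside the gene with CpG and 133 and 12 bp inside with control. Its fold enrichments were 4.43 and 6.95 with CpG and 6.22 and 4.91 with control, and the annotation put the peak of control 2 alone in the Promoter class. Psma5, an alpha ring subunit, had summits 22 bp inside the start in CpG 1 and 13 bp upstream in CpG 2, and 33 and 39 bp inside in control 1 and control 2. The nearest gene of these peaks in CpG 1 and control 1 was 1700010K24Rik. Psma5 had further promoter peaks 576 bp upstream in CpG 2 with 6.49 and 711 bp upstream in control 1 with 3.96. Its promoter call in control 1 came from that peak alone, as the start peak there, at percentile 0.671, was classed as 5′ UTR and exon. In CpG 1 the start peak of Psme3ip1 was nearest to Rspry1 and was a promoter call of that gene. The start peaks of Psme3ip1 in CpG 2 and control 2, 100 and 164 bp inside, were promoter calls of Rspry1 as well.

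The bases before the starts of Psmb3 and Psmd12 are shown because these genes had peaks at their start in every library. They are the 250 bases upstream of the RefSeq start on the strand of the gene (GRCm38.p6, chr11:97703184-97703433 for Psmb3 and chr11:107479278-107479527 for Psmd12, both plus strand). Capitals mark matches, on either strand, to motifs named in the text after them.
Psmb3: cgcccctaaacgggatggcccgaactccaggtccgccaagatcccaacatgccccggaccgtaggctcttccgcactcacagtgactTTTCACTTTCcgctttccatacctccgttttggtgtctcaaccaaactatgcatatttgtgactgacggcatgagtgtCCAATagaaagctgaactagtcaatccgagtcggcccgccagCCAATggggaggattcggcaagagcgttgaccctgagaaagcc
Psmd12: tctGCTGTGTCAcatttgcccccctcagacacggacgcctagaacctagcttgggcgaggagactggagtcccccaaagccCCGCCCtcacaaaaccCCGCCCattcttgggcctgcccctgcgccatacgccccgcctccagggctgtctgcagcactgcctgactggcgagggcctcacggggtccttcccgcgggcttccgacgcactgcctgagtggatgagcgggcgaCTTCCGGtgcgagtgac
In Psmb3 the capitals are a match to the core of the interferon-stimulated response element, GAAA and GAAA with any 2 bases between them (here on the opposite strand), whose first base is 163 bases upstream, and CCAAT, the letters bound by NF-Y, 85 and 43 bases upstream. In Psmd12 they are TGACNNNGC, the core of the antioxidant response element, 247 bases upstream, GGGCGG, bound by Sp and KLF factors, 169 and 153 bases upstream, and the ETS motif CCGGAAG 17 bases upstream. The Psmd12 start may differ between the sources, as the gene spans 24880 bp in the files and 18509 bp in RefSeq, whereas the spans of Psmb3 differ by 36 bp. By distance from the start, no summit of either gene in the 4 single libraries lies within these bases. The summits of Psmb3 there lie 261 to 1378 bp upstream. In the authors' CpG list of the whole condition its summit lies 190 bp upstream, within them. The summits of Psmd12 lie 12 to 153 bp inside the gene, apart from a peak of control 1 that lies 4356 bp upstream. The highest Psmb3 peaks of CpG 2, control 1 and control 2 reach across the start and so cover these bases. The Psmd12 start peaks of CpG 1, CpG 2 and control 2 begin upstream of its start.

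Psmd4 had the highest promoter peaks of the members in CpG 2 and control 2, and none in CpG 1. It encodes a ubiquitin receptor of the 19S particle (chromosome 3, 94940004 to 94949925, minus strand). Its promoter peak had a fold enrichment of 12.5 in CpG 2, with the summit 457 bp upstream. The peaks of control 1 and control 2 had 7.52 and 14.6, with summits 47 and 402 bp upstream. They ranked at percentile 91.7 in CpG 2 and at 78.0 and 94.0 in the controls. Psmd4 was 1 of 6 members called in every library but CpG 1 (14.0%, against 7.60% of all named genes), with Psmb2, Psmb8, Psme2, Psmd5 and Psmc3ip. Without CpG 1, 8 members (18.6%) were called in all the other libraries, against 13.1% of all named genes.

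Its upstream bases are shown because a match to the interferon element core lies among them, as in Psmb3 (GRCm38.p6, chr3:95042615-95042864, minus strand, read on the gene's strand).
Psmd4: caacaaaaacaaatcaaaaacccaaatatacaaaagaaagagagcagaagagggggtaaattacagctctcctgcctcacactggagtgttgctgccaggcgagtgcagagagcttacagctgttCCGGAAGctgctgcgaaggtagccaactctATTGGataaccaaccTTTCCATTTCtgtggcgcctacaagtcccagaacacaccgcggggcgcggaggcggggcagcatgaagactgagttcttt
The capitals are the ETS motif 125 bases, CCAAT 95 bases and the interferon element core 80 bases upstream. The spans of the gene differ by 5 bp between the files and RefSeq. By distance from the start, the summits of CpG 2 and control 2 lie beyond these bases and that of control 1 within them. The promoter peaks of CpG 2, control 1 and control 2 all cover these bases.

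Of the genes that interferon induces, Psmb8, Psme1 and Psme2 were members and had promoter calls. Psmb9 and Psmb10 were the nearest gene of no peak, so the lists do not name them and their promoter calls were not counted. This does not show that their promoters lacked peaks. Of the 3 members Psmb8, Psme1 and Psme2, 0 and 3 were called with CpG and 2 and 2 with control. All named genes were called at 10.4% and 22.2% with CpG and 24.1% and 28.6% with control. Psme1 became a member only through its CpG 2 promoter peak, so its call there follows from the rule for members. The same rule keeps Psmb9 and Psmb10 out of the count. Psmb8 encodes the immunoproteasome subunit that replaces the product of Psmb5 (chromosome 17, 34416694 to 34420428, plus strand). In CpG 1 it was nearest only to a peak in an intron of Tap1, the neighbouring gene for a subunit of the peptide transporter, and no summit lay within 1 kb of its start. CpG 2 had promoter peaks 797 bp upstream and 28 bp inside, with fold enrichments of 6.59 and 4.19, and an exon peak 537 bp inside with 4.15. Control 1 had a promoter peak 959 bp upstream with 5.94 and a stronger exon peak 492 bp inside with 12.4, at percentile 96.2 of its list. Control 2 had a promoter peak 26 bp inside with 7.23 and an exon peak 473 bp inside with 6.08. The start of Psmb8 thus carried peaks in 3 libraries of both conditions, spread over both sides of the start.

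Psme2, the beta subunit of the PA28 activator (chromosome 14, 55824897 to 55828570, minus strand), had promoter peaks in the same 3 libraries. The fold enrichment was 4.51 in CpG 2 with the summit 126 bp upstream, and 6.66 and 4.88 in control 1 and control 2 with summits 153 and 132 bp upstream. Psme1, the alpha subunit (chromosome 14, 55815579 to 55818986, plus strand), had 1 promoter peak, in CpG 2, with a fold enrichment of 5.35 and the summit 300 bp upstream. The promoter peaks of both genes were also assigned to an ID that the files do not name. Control 2 had a further peak 820 bp inside Psme2, with a fold enrichment of 9.15. The other activators had no promoter call in either CpG library, as Psme3, which encodes the nuclear activator PA28 gamma, was called in control 1 with 4.11 and Psme4, which encodes PA200, in none. Psme3 had intron peaks as well, 476 bp inside in CpG 2 with 4.93 and 303 bp inside in control 1 with 5.32. Psme4 had summits 377 and 665 bp inside the gene in control 1 and control 2.

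The upstream bases of Psmb8 and Psme2 are shown as the members that interferon induces with calls in 3 libraries (GRCm38.p6, chr17:34197945-34198194, plus strand, and chr14:55591102-55591351, minus strand).
Psmb8: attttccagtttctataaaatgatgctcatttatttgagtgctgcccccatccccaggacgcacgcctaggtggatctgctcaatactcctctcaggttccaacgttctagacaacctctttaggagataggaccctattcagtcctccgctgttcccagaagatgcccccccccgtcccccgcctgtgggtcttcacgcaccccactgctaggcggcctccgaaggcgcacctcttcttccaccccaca
Psme2: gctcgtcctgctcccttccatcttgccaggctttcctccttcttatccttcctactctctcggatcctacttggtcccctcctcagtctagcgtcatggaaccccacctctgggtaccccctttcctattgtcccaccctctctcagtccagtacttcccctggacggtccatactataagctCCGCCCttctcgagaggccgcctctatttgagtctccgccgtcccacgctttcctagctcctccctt
None of the 10 motifs searched matched in the Psmb8 window, and Psme2 had GGGCGG, read on the opposite strand, 67 bases upstream. The absence of these letters from a window of 250 bases says nothing of other sites, and Psmb8 spans 3735 bp in the files and 3260 bp in RefSeq, so the window may not end at the start that the files use.

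Psmd10 was the member with promoter calls in both CpG libraries and neither control (2.33% of members, against 0.610% of all named genes). It became a member only through its CpG 1 peak, and thus through the condition in which it was called. It encodes gankyrin, a chaperone of 19S assembly (chromosome X, 139849177 to 139857477, minus strand). The peak of CpG 1 had a fold enrichment of 3.89 with its summit 5 bp upstream and that of CpG 2 had 5.08 with its summit 139 bp upstream, and neither control had a peak within 1 kb. Both peaks ranked low in their lists, at percentiles 16.0 and 27.7, and did not overlap each other. They were also promoter calls of Atg4a, the gene of an autophagy protease that starts beside Psmd10, and Atg4a was the nearest gene in CpG 2. By nearest gene within 1 kb, at a −log10 q of at least 5 or at equal list length, 0 members were called in the CpG libraries alone.
Psmd10: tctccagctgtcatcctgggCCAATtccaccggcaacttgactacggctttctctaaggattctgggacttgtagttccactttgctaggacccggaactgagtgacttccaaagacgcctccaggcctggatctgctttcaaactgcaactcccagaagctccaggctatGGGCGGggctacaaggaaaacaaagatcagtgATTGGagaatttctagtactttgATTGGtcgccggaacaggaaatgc
These upstream bases (GRCm38.p6, chrX:140956712-140956961, minus strand), shown for the one member called with CpG alone, hold CCAAT 230, 47 and 24 bases upstream and GGGCGG 79 bases upstream, in capitals, and no interferon element core. In the opposite direction Psmc1, a 19S ATPase, was called in both controls and neither CpG library (2.33%, against 4.36%). Its promoter peaks lay far upstream, at 1467 bp with a fold enrichment of 3.95 in control 1 and 1300 bp with 4.87 in control 2. An intron peak closer to the start was found in CpG 2 as well, 124 bp inside with 7.76, and in control 2, 140 bp inside with 8.69, so that by summits within 1 kb Psmc1 was called in 1 library of each condition. By that count Psmd11 and Psme4 had peaks in both controls alone (4.65% of members, against 6.34% of all named and 9.05% of protein-coding named genes). Both became members through control lists alone. Without CpG 1, the members called in CpG 2 and neither control were 4, Psmb6, Psmd10, Psme1 and Psmg1, against 3.64% of all named genes. Of these, Psmd10, Psme1 and Psmg1 became members through CpG lists alone.

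**Figure D2:**
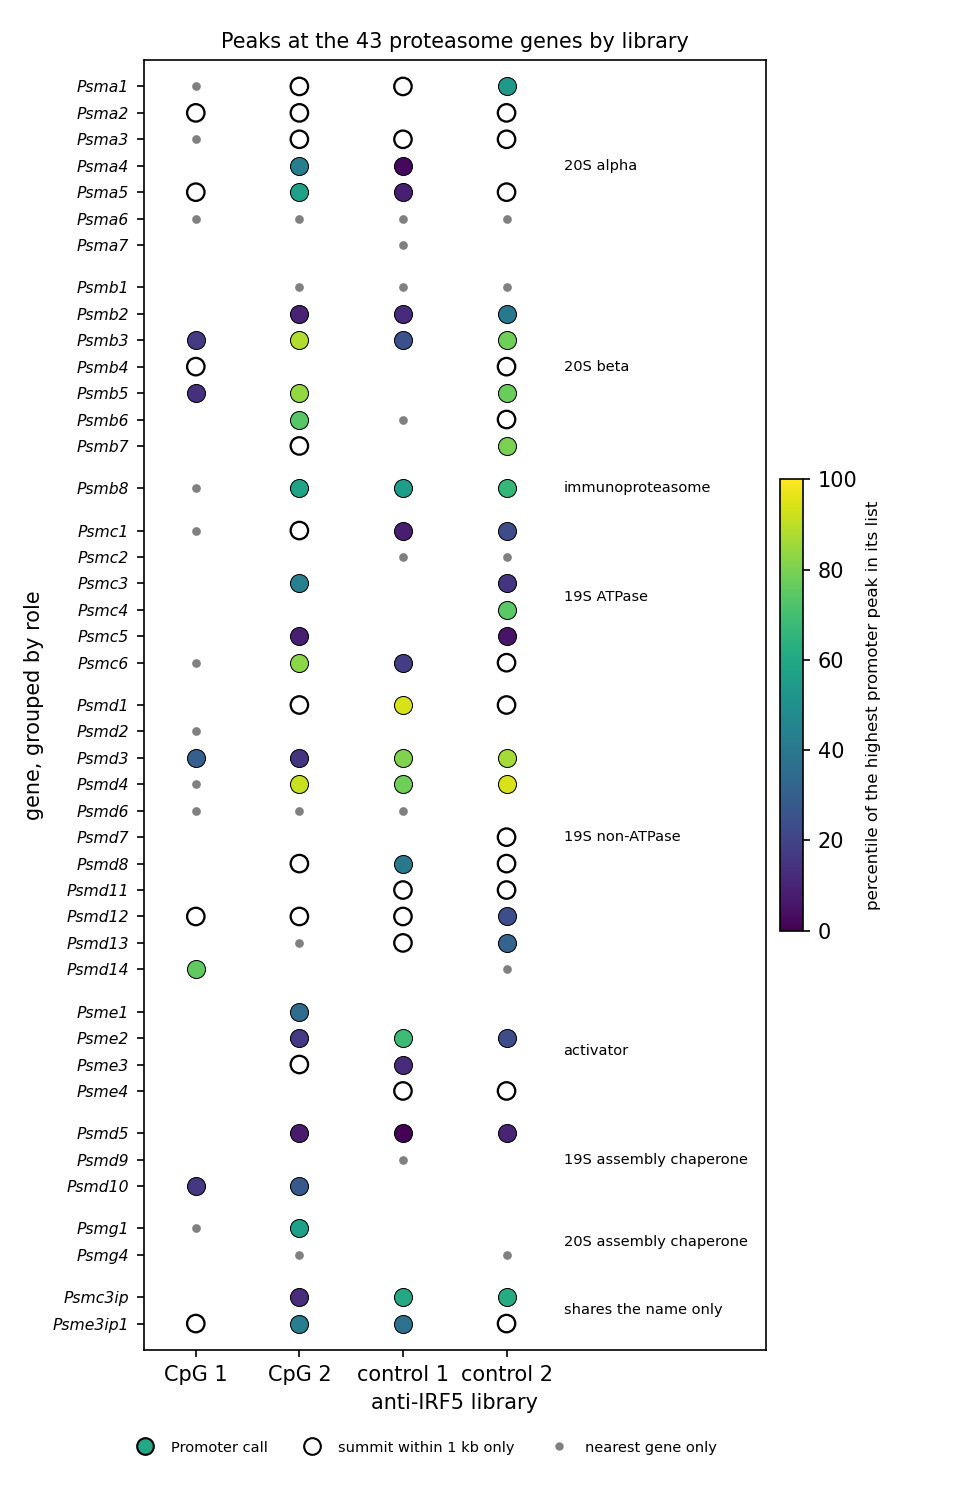
Peaks at each of the 43 proteasome genes (rows, grouped by role) in the 2 CpG and 2 control libraries (columns). Filled circles are promoter calls coloured by the percentile of the highest promoter peak within its own list, open circles mark a summit within 1 kb of the start without a promoter call, and grey dots mark genes that were only the nearest to a peak; Psmb3 and Psmd3 are filled in all 4 columns.

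All classes of subunit held called members. The counts of each class are read against the 10.4% and 22.2% of all named genes called in CpG 1 and CpG 2 and the 24.1% and 28.6% in control 1 and control 2, and with so few genes a class no difference can be drawn from them. Of the 7 alpha subunit genes, 0 and 2 had a promoter call with CpG and 2 and 1 with control. Of the 7 constitutive beta subunit genes, 2 and 4 were called with CpG and 2 and 4 with control. Psmb5, the gene of the chymotrypsin-like site, had fold enrichments of 3.80 and 9.66 with CpG and 8.45 in control 2, with summits 180, 142 and 170 bp upstream, and no call in control 1. Its promoter peaks were also assigned to the microRNA gene Mir686. Of the 6 ATPase genes of the 19S particle, 0 and 3 were called with CpG and 2 and 4 with control, and of its 11 non-ATPase genes 2 and 2 with CpG and 4 and 4 with control. Psmd14, which encodes the deubiquitinase of the particle, was called in CpG 1 alone, with a fold enrichment of 6.14 at 191 bp upstream and an intron peak of 8.55 at 974 bp inside. Psmg1, a chaperone of 20S assembly, was called in CpG 2 alone, 2 bp upstream with 6.48.

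The authors' lists of whole conditions gave a promoter call for 9 members (20.9%) with CpG and 14 (32.6%) with control, against 15.0% of all named genes with CpG and 24.9% with control. Called in both were Psmb3, Psmb5, Psmd3, Psmd4, Psme2 and Psmd5 (14.0%, against 12% of all named genes). The CpG list alone held Psmb6, Psmc6 and Psmg1 (6.98%, against 2.99%). The control list alone held Psmb2, Psmc3, Psmc4, Psmc5, Psmd1, Psmd8, Psme3 and Psmc3ip (18.6%, against 12.9%). Psmd10, called in both single CpG libraries, was in neither, nor was Psmb8, whose peak in the control list lay in an exon 476 bp inside. Each condition has 1 such list, without a replicate. By nearest gene, Psmg1 became a member through CpG lists alone, and Psmc3, Psmc4 and Psmc5 through control lists alone.

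A promoter call did not always lie near the start. Psmd5, a chaperone of 19S assembly, was called in CpG 2, control 1 and control 2 by peaks 3813, 3775 and 3750 bp inside its span, with fold enrichments of 3.91, 2.78 and 4.19, and had no summit within 1 kb of its start in any library. The nearest gene of these peaks was Cutal. Psmd5 spans 25236 bp in the files and 18879 bp in RefSeq. Psmd13 was called in control 2 alone, by a peak 1678 bp upstream, and had no summit within 1 kb in that library. Psmd5, Psmc1 and Psmd13 are counted among the promoter calls above on the authors' class alone.

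No promoter call in any library was found for 14 members (32.6%, against 60.0% of all named and 46.6% of protein-coding named genes). Of these, Psma2, Psma3, Psmb4, Psmd7, Psmd11 and Psme4 had a summit within 1 kb of the start in at least 1 library. The remaining 8 were Psma6, Psma7, Psmb1, Psmc2, Psmd2, Psmd6, Psmd9 and Psmg4. Psma3, an alpha ring subunit, had an intron peak at nearly the same base in 3 libraries, 178 bp inside in CpG 2 and 176 and 181 bp inside in control 1 and control 2, with fold enrichments of 8.34, 3.51 and 5.16. The start peaks of Psma2 lay in the Promoter or 5′ UTR of an ID that the files do not name. Psmb1, a beta ring subunit, had an intron peak 1266 bp inside in CpG 2 and 1268 bp inside in both controls, just outside the 1 kb limit, with fold enrichments of 5.66, 8.87 and 7.59. Its start may differ between the sources, as it spans 24732 bp in the files and 22556 bp in RefSeq. The same holds for Psma2 (60998 and 12432 bp), Psma3 (21728 and 26595 bp) and Psmd9 (80720 and 21937 bp).

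**Figure D3:**
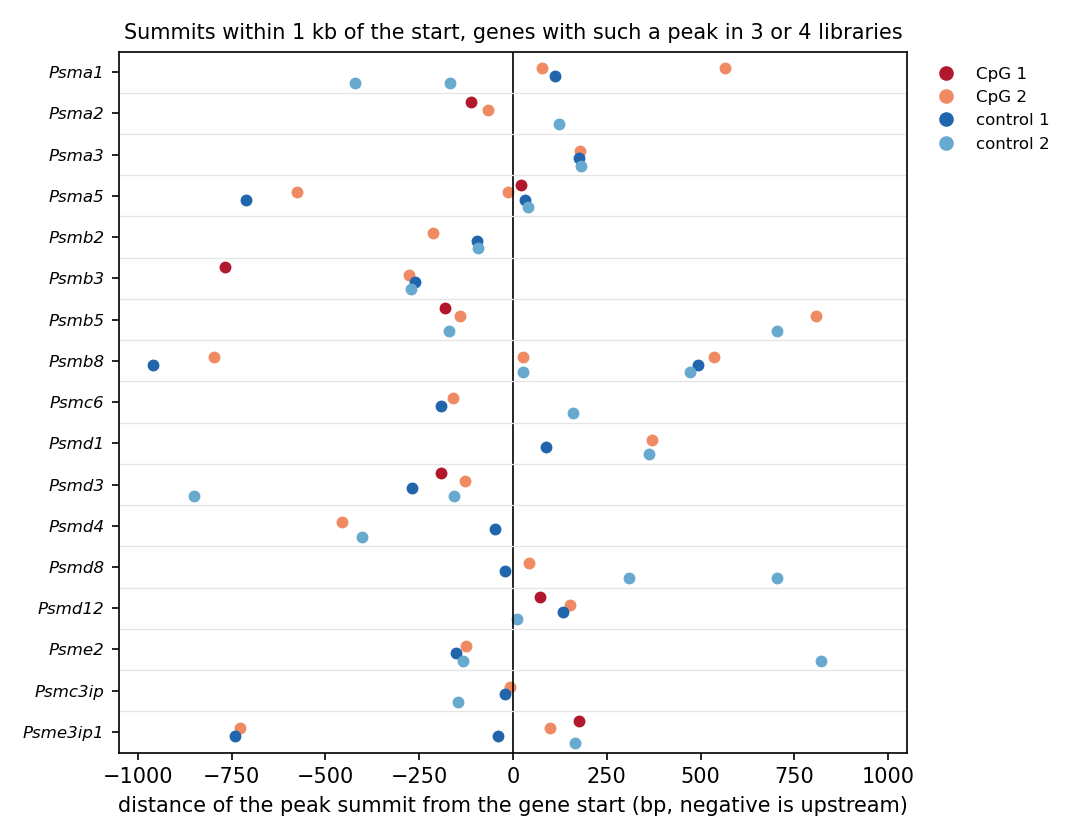
Distance of each peak summit from the gene start (x axis, bp, negative values upstream) for proteasome genes with a summit within 1 kb in 3 or 4 libraries (y axis), coloured by library. The summits of Psma3 lie at 176 to 181 bp inside the gene in CpG 2 and both controls, and those of Psmb3 at 261 to 276 bp upstream in the same libraries, with CpG 1 at 768 bp.

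The promoter peaks of members spanned low to high ranks in their lists, up to percentile 91.7 in CpG 2 and 94.0 in control 2, both at Psmd4. The highest promoter peak of each called member had a median percentile of 16.5 and 42.5 with CpG and 31.1 and 53.6 with control. For all named genes with a promoter call the medians were 36.9 and 48.4 with CpG and 53.0 and 52.5 with control. The median distance of the summit from the start was 191 and 214 bp for members with CpG and 174 and 158 bp with control, against 200.0 and 227 bp for all named genes with CpG and 259 and 258 bp with control. The median percentile of called members was thus below that of called genes at large in CpG 1, CpG 2 and control 1 and close to it in control 2.

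In every library the peak that ranked highest near members lay away from promoters, in an intron of Psmc1. In control 1 the next were an exon peak 492 bp inside Psmb8, at percentile 96.2, and the promoter peak of Psmd1, at percentile 93.9. Members were the nearest gene of 22 and 57 peaks with CpG and 56 and 74 with control, or 0.162% and 0.220%, and 0.192% and 0.198%, of the lists. Of the members, 18 and 30 (41.9% and 69.8%) were nearest to a peak with CpG and 28 and 32 (65.1% and 74.4%) with control, close to the 43.1% and 61.5%, and 64.0% and 72.0%, of all named genes. Psmc5 was named only through the lists of whole conditions. The 4 members Psma1, Psmc1, Psma6 and Psmd4 accounted for 71 of the 209 peaks (34.0%). Of the peaks nearest to members, 22.7% and 26.3% with CpG and 25.0% and 28.4% with control lay over 10 kb from the gene start. Among all peaks of the lists the shares were 50.5% and 40.8% with CpG and 38.2% and 40.4% with control, and no difference was tested. When peaks of the 4 libraries that overlapped by at least 1 bp were merged, they formed 107 regions nearest to members, of which 11 (10.3%) had a peak in all 4 libraries, against 10.1% of all 55621 regions.

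Of these 11 regions, 5 had a summit within 1 kb of the member's start and 6 lay farther away, and they are described here after their values were seen. The highest was in an intron of Psmc1, 6016 bp inside the gene in CpG 1, CpG 2 and control 2 and 6121 bp inside in control 1 (chromosome 12, 100081453 to 100083493). Its fold enrichments were 12.3 and 76.7 with CpG and 18.9 and 65.8 with control. It ranked 126 and 10 from the top of the CpG lists and 216 and 22 from the top of the control lists, within the upper 1% of every list. Psmc1 thus had no promoter call in either CpG library, while this intron peak stood near the top of both CpG lists. A second Psmc1 region 3.4 to 3.8 kb upstream had fold enrichments of 4.69 and 5.83 with CpG and 7.42 and 6.71 with control.

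A region 23.3 kb upstream of Psmd4, in an intron of Pip5k1a, a phosphoinositide kinase gene, had fold enrichments of 5.19 and 30.2 with CpG and 9.55 and 27.5 with control (chromosome 3, 94972408 to 94974262). Its percentiles were 55.0 and 99.4 with CpG and 90.4 and 98.9 with control, so CpG 1 was lowest. Intergenic regions lay 5.6 to 5.8 kb upstream of Psma3, with fold enrichments of 5.69 and 19.7 with CpG and 5.35 and 12.4 with control, and 4.1 to 4.2 kb upstream of the ATPase gene Psmc6, with 7.78 and 7.42 with CpG and 10.8 and 10.4 with control. Psma6, an alpha subunit gene with no summit within 1 kb of its start, was nearest to a region 23 kb upstream in an intron of Prorp, with 9.34 and 8.42 with CpG and 5.53 and 8.94 with control. That a gene is nearest to a peak does not show that the peak acts on it, which was not tested.

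**Figure D4:**
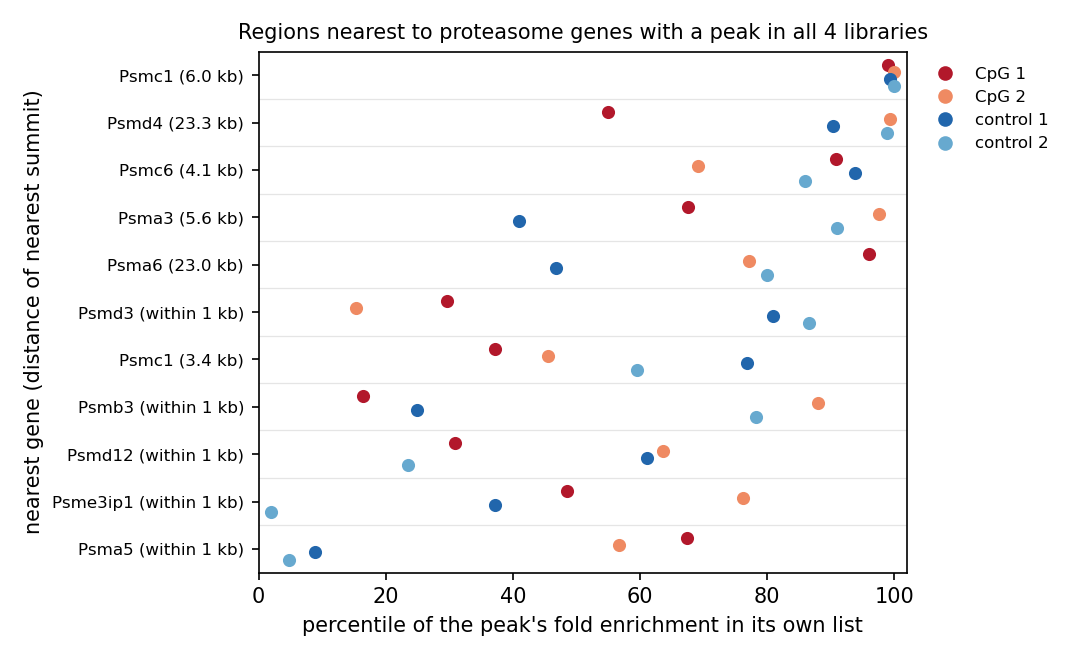
Percentile of the peak's fold enrichment within its own list (x axis) for the 11 regions nearest to proteasome genes with a peak in all 4 libraries (y axis, with the distance of the nearest summit from the gene's start), coloured by library. The intronic Psmc1 region lies above percentile 99 in every CpG and control list, and the Psmd4 region at 55.0 in CpG 1 and above 90 in the other lists.

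Sequence motifs were counted over the 250 bases upstream of the start for the 37 members with an entry in the RefSeq promoter table, and for all 27025 genes there. Motifs were matched on both strands, and a match is a description of letters and no evidence of a site. The interferon element core matched in 3 members (8.11%), Psmb3, Psmd4 and Psmd9, against 3.46% of all genes. Of these, Psmb3 and Psmd4 had promoter calls in 4 and 3 libraries, and Psmd9, a 19S chaperone, in none. The ETS motif CCGGAAG matched in 13 members (35.1%), against 7.83% of all genes and 10.2% of protein-coding genes, and GGGCGG in 22 (59.5%), against 35.4% and 45.8%. The ETS motif was found in 4 of 14 members called in 2 to 4 libraries and in 9 of 23 called in fewer. The CCAAT letters matched in 37.8% of members and 37.5% of all genes, and TGACNNNGC, bound by the proteasome regulator Nfe2l1 and its relatives, in 13.5% and 11.5%. The NF-kB motif GGGANTTCC and the CRE motif TGACGTCA matched in no member, against 1.63% and 1.77% of all genes. The AP-1 motif TGANTCA, the YY1 motif ATGGCGG and the nuclear respiratory factor motif, GCGCA followed by TGCGC, matched in 1 member each, against 7.82%, 2.58% and 0.877%.

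Other genes of the ubiquitin and antigen pathway, from a list of 30, were looked up in the same way. Of these 26 were named, and 8 and 15 (30.8% and 57.7%) had a promoter call with CpG and 9 and 15 (34.6% and 57.7%) with control. All named genes were called at 10.4% and 22.2% with CpG and 24.1% and 28.6% with control. For protein-coding named genes the shares were 14.1% and 30.5% with CpG and 33.2% and 38.8% with control. Called in all 4 libraries were the ubiquitin gene Ubb, the segregase gene Vcp, Zfand5, whose product stimulates the proteasome, and B2m, the light chain of MHC class I. These are 4 of the 26, where 5.51% of all named and 7.76% of protein-coding named genes were called in all 4. Ubb had promoter fold enrichments of 4.67 and 13.5 with CpG and 10.3 and 17.2 with control, and B2m 4.84 and 7.73 with CpG and 8.55 and 13.4 with control. The transporter gene Tap2 had 5.21 in CpG 2 and 9.32 and 5.47 with control, and Tap1 5.30 in CpG 2 and 5.13 in control 2. Nfe2l1, the gene of the factor that restores proteasome synthesis, was called in CpG 2 and both controls, with 5.43, 4.96 and 4.68. Akirin2, needed for nuclear import of proteasomes, was called in both CpG libraries and in control 2, with 5.47 and 8.42 with CpG and 6.80 in control 2.

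Promoter calls were counted in the same way over 2 other large sets of constitutively expressed genes. The 77 named ribosomal protein genes had promoter calls in 18.2% and 37.7% with CpG and 42.9% and 50.6% with control, and the 30 named genes of respiratory complex I in 16.7% and 36.7% with CpG and 30.0% and 53.3% with control. The proteasome genes, at 11.6% and 44.2% with CpG and 37.2% and 39.5% with control, had the highest share of the 3 sets in CpG 2 and the lowest in CpG 1 and control 2 by promoter calls. By summits within 1 kb this order changed, as the ribosomal protein genes reached 27.3% and 66.2% with CpG and 66.2% and 87.0% with control and complex I 23.3% and 56.7% with CpG and 56.7% and 83.3% with control, against 23.3% and 62.8% with CpG and 46.5% and 62.8% with control for the proteasome genes. No difference between the sets was tested.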

How the data were processed

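Anti-IRF5 CUT&Tag of 4 libraries, 2 given CpG and 2 given PBS, was analysed from 6 annotated peak lists, of which 4 belong to single libraries and 2 to conditions; 4 IgG samples without a list of their own were not analysed here. The submitters' processing notes name MACS2 2.1.0, ChIPseeker, BWA 0.7.12 and fastp 0.20.0. A build of the coordinates is not given in the sources. Per the names of the deposited lists, IgG of the same condition was the background, with 1 IgG library shared by both control lists and an IgG numbered 1 for both CpG lists under differing names, so lists of a condition may share a background and are not fully independent in the test. The authors deposited for each peak a pileup, the signal at its summit, a fold enrichment, the ratio of that signal to the local background, and the −log10 of its p-value and q-value, whose damaged headers were read from order and values. Lines continuing an overlong cell were skipped, and peaks on 21 assembled chromosomes were used.

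Calls were counted with Python 3.11.15 and pandas 2.3.3, by the authors' Promoter class or by a summit within 1 kb of the start, and checked on simulated lists. No model was fitted, since lists hold no counts, and depth is unknown, so no interval can be given. The members' counts have no test, and the one test is an exact permutation over libraries. Nothing says that the 2 libraries of a condition are separate animals or cultures, so its p-value may measure technical spread. Alternatives were the nearest gene within 1 kb, a −log10 q of at least 5, the 13553 most significant peaks of each list, protein-coding genes as background, subunits alone, the condition lists, overlap of the promoter peaks and each library left out. Sequences and gene types are from RefSeq GRCm38.p6, whose coordinates are its own and were not set against those of the files. Genes named are the interferon-inducible, all-library, one-condition and never-called members, genes sharing their peaks, and pathway genes called in every library, and others were named after their values were seen. The members and lists were chosen with earlier results of these data known.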

Additional observations from a re-analysis of the deposited data

How the results depend on the processing

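Of 87 recomputed values, 55 stayed within the spread set for them, 31 moved and 1 reversed. In CpG 1 the members' share lay 1.20 percentage points above that of all named genes and at -2.48 points against protein-coding named genes. With peaks assigned by nearest gene within 1 kb, 8 members were called in CpG 1 and 26 in control 2, none (0) in CpG alone and 2 in control alone. No share of all named genes was set beside these counts, so they cannot be read against other genes. By summits within 1 kb, 10 were called in CpG 1 (23.3%) and 27 in control 2 (62.8%), against 13.6% and 38.8% of all named genes. In all 4 libraries 5 were called (11.6%, against 9.01%) and in control alone 2 (4.65%, against 6.34%). At a −log10 q of at least 5, 2 were called in CpG 1 (4.65%), below the 7.21% of all named genes. At that cut 1 was called in all 4 libraries and 0 in CpG alone, and 10 were nearest to a peak in CpG 1, again without a share of all named genes. At equal list length 10 were called in CpG 2 (23.3%), 6 in control 1 (14.0%) and 8 in control 2 (18.6%). All named genes were then called at 14.0%, 15.1% and 14.4%. In either condition alone 0 members were called, and in control 1 the calls included 1 of the interferon-inducible genes. Nearest to a peak were 15 and 18 members in control 1 and control 2, with no share of all named genes beside them. With subunits alone, 0 were called in CpG alone. In the lists of whole conditions 6 were called in both, 3 with CpG alone and 8 with control alone. With 1 library left out, 2 to 8 of the 43 members were called in all others, against 5.86% to 13.1% of all named genes. Both were highest without CpG 1. In CpG alone 1 to 4 members were called, against 0.965% to 3.64% of all named genes, both again highest without CpG 1. In control alone 1 to 7 members were called, against 4.91% to 12% of all named genes, both highest without CpG 2. The cause of these moves was not tested, beyond the fewer peaks or libraries that some settings keep. For all named genes the difference of CpG minus control was -2090, the same with a replicate block over the 2 numbered pairs (exact p = 0.5, the smallest it can give), and -3318 to -863.0 with 1 library left out. The library numbers are not known to pair samples. With 2 libraries a condition and no depth, a missing peak cannot be told from a peak under the threshold.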
